A study of Mus musculus with 15 samples.

Results

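The immunity-related GTPases, or IRG family, are represented here by 7 genes chosen by symbol: Irgm1, Irgm2, Igtp, Iigp1, Tgtp1, Tgtp2 and Gm12250. They occupy 9 of the 36660 rows that hold values in each of 2 deposited expression tables, because Irgm1 and Tgtp2 are each listed under 2 gene identifiers. The members were chosen by name, not by a cutoff on a measured value, but with earlier results of these data known. RNA was taken from the substantia nigra, a midbrain region that contains dopamine neurons, of C57Bl/6J mice that had received an adeno-associated virus (AAV) in the nigra of 1 side. In 3 mice the virus was AAV-hSYN1-miR-181, which carries the microRNA miR-181, at 1.65e+10 vector genomes. In 5 mice it was AAV-hSYN1-GFP, which carries green fluorescent protein, at 1e+10 vector genomes. Tissue was collected 3 weeks later, and the side that received no virus served as the control of the same animal. No age, disease model or gene deletion is given for any group.

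The miR-181 set has 3 injected and 3 uninjected libraries, and the GFP set has 4 injected and 5 uninjected libraries, since GFP mouse 5 is represented by its uninjected side only. Each library is a separate piece of tissue from 1 side of 1 mouse. The human synapsin promoter (hSYN1) drives the cargo in neurons, so the design does not place it in glia, and every library mixes all cells of the dissected piece. No group received fluid or an empty capsid alone. Vector cargo, dose, read length (75 bases for miR-181, 50 for GFP), sequencer and library set changed together, and their effects cannot be told apart. The transcripts of the vectors were not analysed here.

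IRG proteins are GTPases of the cell's own defence in mice, and their genes are among the most strongly interferon-inducible in mouse cells. The regulatory members, Irgm1, Irgm2 and Igtp (also called Irgm3), sit on the cell's own membranes and hold the effector members in an inactive state. The effectors, Iigp1 (Irga6), Tgtp1 and Tgtp2 (Irgb6) and Gm12250 (Irgb10), load onto the vacuoles of parasites and bacteria and help to break them. In brain they are best known from infection and inflammation, where interferon-gamma reaches neurons and glia through a receptor made of Ifngr1 and Ifngr2.

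Of the 7 genes, 6 lie on chromosome 11 in 2 clusters (GRCm38, GENCODE M21). Irgm1 (chr11:48861968-48871683), Tgtp1 (chr11:48985327-48994172) and Tgtp2 (chr11:49057194-49064206) are on the minus strand. Gm12250 (chr11:58187739-58189012), Igtp (chr11:58199556-58207591) and Irgm2 (chr11:58199618-58222782) are on the plus strand, and the annotated span of Irgm2 overlaps that of Igtp. GENCODE M21 annotates Gm12250 as a processed pseudogene and the others as protein coding.

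The promoters of 6 members were found in RefSeq's GRCm38 table, each running from 250 bases before to 50 bases after an annotated start. Iigp1 had no promoter there. The promoters are shown to describe letters that match the sites of interferon-activated factors. They were printed with these matches known, so the shares given below are descriptions and carry no test. Any part of such letters in the changes of the members was not tested. The search was for GAAANNGAAA, the interferon-stimulated response element (ISRE) bound by factors of the Irf family, and TTCNNNGAA, the gamma-activated site (GAS), on both strands. The starts are RefSeq's and need not be the ends of the GENCODE spans above. The windows of Irgm1, Irgm2 and Tgtp1 lie inside those spans, and that of Gm12250 ends well before its span begins. The 60-base windows below are written 5′ to 3′ on the strand of the gene, all upstream of the RefSeq start, with every match in capitals.
Irgm1, chr11:48871421-48871480, minus strand: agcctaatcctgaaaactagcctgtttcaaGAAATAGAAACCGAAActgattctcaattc
Irgm2, chr11:58214883-58214942, plus strand: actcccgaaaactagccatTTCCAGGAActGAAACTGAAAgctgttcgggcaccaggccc
Igtp, chr11:58199492-58199551, plus strand: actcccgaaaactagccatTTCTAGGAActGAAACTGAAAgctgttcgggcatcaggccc
Tgtp1, chr11:48992294-48992353, minus strand: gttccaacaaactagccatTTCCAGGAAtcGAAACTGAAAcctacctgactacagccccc
Tgtp2, chr11:49064253-49064312, minus strand: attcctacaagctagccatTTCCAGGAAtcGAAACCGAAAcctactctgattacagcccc
Gm12250, chr11:58183750-58183809, plus strand: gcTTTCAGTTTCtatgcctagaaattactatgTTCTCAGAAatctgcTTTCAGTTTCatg

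All 6 promoters held an ISRE match, and 5 of them (not Irgm1) also held a GAS match. Of all 32851 promoters in the table, 3.44% held an ISRE match, 8.3% a GAS match and 0.454% both. In Irgm2, Igtp, Tgtp1 and Tgtp2 the GAS match stood just before the ISRE match, in the same order and orientation. In Irgm1 a pair of ISRE matches overlapped by 4 bases, from 30 to 15 bases before the start. Gm12250 held ISRE matches on the other strand on both sides of a single GAS match. The promoters of Igtp and Irgm2 shared an unbroken stretch of 61 bases, and those of Tgtp1 and Tgtp2 shared 27. The 300-base promoter of Ifi47, another IRG gene next to Tgtp2, held neither match. A match is a description of the letters and does not show that a factor bound there.

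**Figure D1:**
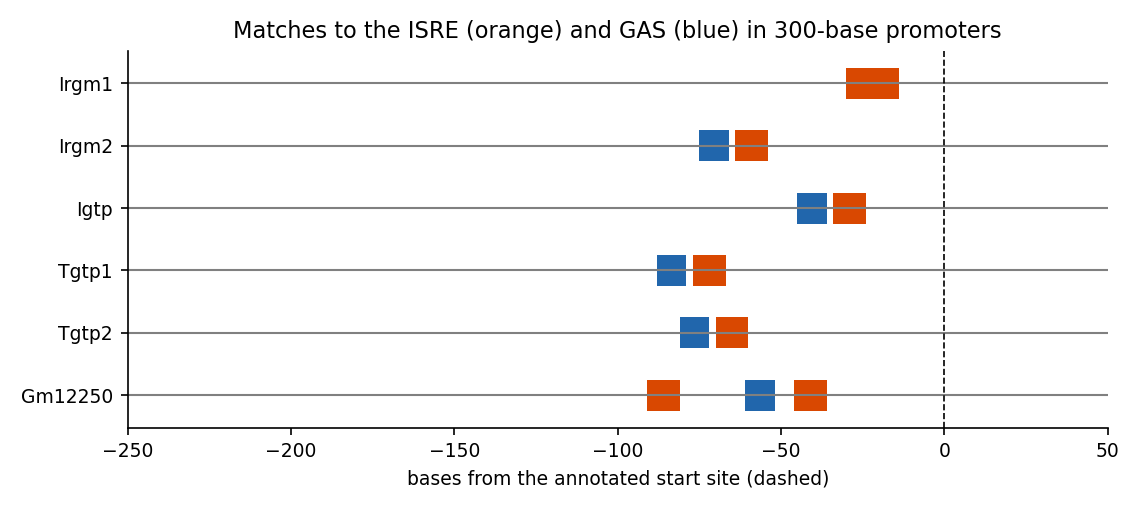
Positions of ISRE matches (orange) and GAS matches (blue) in the 300-base promoters of the 6 members in RefSeq's table, in bases from the annotated start site (dashed line). Every match lies upstream of and close to the start, and the GAS match of Irgm2, Igtp, Tgtp1 and Tgtp2 lies just before the ISRE match.

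Values are the authors' deposited abundances per transcript length, TPM (transcripts per 1e+06 transcripts) divided by 1 scaling factor per library, and are called scaled TPM below. Library sums ran from 975901 to 1045526, and 15181 to 15738 rows reached 1 or more. The number of reads behind a value is unknown, so no counting error is given. Dopamine neuron markers (Th, Slc6a3, Slc18a2 and Ddc) summed to between 509 and 1837 in all libraries, so RNA of these neurons was present in every piece. The serotonin neuron markers Tph2, Slc6a4 and Fev summed to between 37.8 and 92.7 in the miR-181 set and to between 0.342 and 1.53 in the GFP set. The pituitary hormone transcripts Prl, Gh and Pomc summed to 49479 in the uninjected and 2421 in the injected library of GFP mouse 1. Differences were tested with limma on log2(value + 0.5) over all genes with a mean of at least 1, and a gene was called when its p, adjusted by Benjamini and Hochberg's method over all genes, was below 0.05.

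The first comparison asked how the IRG transcripts of the side injected with the miR-181 vector differed from those of the opposite side. All 7 members rose, by 3.47 to 5.47 on the log2 scale, and none of their injected libraries overlapped an uninjected one. Of all genes tested, 16.1% were higher on the injected side without overlap. The regulators Irgm1, Irgm2 and Igtp went from between 3.68 and 12 scaled TPM to between 54.7 and 441. The effectors went from between 0.577 and 4.21 to between 11.7 and 173. Among the 3 mice, mouse 1 had the lowest injected value of every member and mouse 2 the highest of every member except Tgtp1.

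In this comparison 8 of the 9 rows were tested, and all 8 were called higher, with adjusted p from 0.00231 to 0.0139. Of all 15621 genes tested, 683 were called higher (4.37%) and 229 lower (1.47%). Leaving out any single library moved the count over all genes, from 912 to between 116 and 1939, but left 7 or 8 of the 8 tested member rows called. The median log2 change of the 8 rows was 4.89, against 0.0036 for all genes. The ninth row, a second Irgm1 identifier, had a mean under 1 and was not tested. Its values were 0.0477, 0 and 0 uninjected and 0.796, 2.0 and 1.19 injected. Gm12250 reached the minimum mean only through its injected libraries, so it could be tested only because it was high there.

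Irgm1 controls the other IRG proteins on the Golgi and lysosomes. It was the most abundant member row on the uninjected side, at 11.9, 11.2 and 12 scaled TPM in mice 1, 2 and 3. On the injected side it stood at 115, 310 and 196, so the injected libraries lay far above a control side that hardly varied. The log2 change was 3.98 ± 0.32 (SE), with an adjusted p of 0.00275, and it was higher in 3 of 3 mice.

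Irgm2, a regulator on the Golgi, read 3.68, 4.03 and 4.70 uninjected and 54.7, 132 and 82.4 injected. The groups were well apart and the change was of the order of that of Irgm1. It came to 4.2 ± 0.29 (SE) on the log2 scale, adjusted p = 0.00231, higher in 3 of 3 mice.

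Igtp, a regulator on the endoplasmic reticulum and lipid droplets, went from 5.56, 6.03 and 7.46 to 157, 441 and 261. It was below Irgm1 in every uninjected library and above it in every injected one. Its log2 change was 5.27 ± 0.34 (SE), adjusted p = 0.00231, higher in 3 of 3 mice, and it ranked 11 of 15621 by size of rise. Igtp and Irgm2 share 326 stretches of 31 bases (15.9% of those of Igtp and 9.16% of those of Irgm2), which leaves most of each transcript distinct.

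Iigp1, the effector that coats the vacuole of Toxoplasma, read 1.72, 1.75 and 2.53 uninjected and 49.3, 145 and 104 injected. It is the member outside the clusters, on the plus strand of chromosome 18 (chr18:60376027-60392634), and it shares no stretch of 31 bases with another member. The log2 change was 5.20 ± 0.37 (SE), adjusted p = 0.00231, higher in 3 of 3 mice.

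Gm12250, the effector also called Irgb10, which acts on bacterial membranes, was near absent from the uninjected side at 0.857, 0.577 and 1.05. The injected side read 30.7, 95.3 and 65.4. The ratio of the group means was 77.1, and the log2 change with the pseudocount of 0.5, which understates the change of a low gene, was 5.47 ± 0.39 (SE), adjusted p = 0.00231. It ranked 4 of 15621 by this measure and was higher in 3 of 3 mice.

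Tgtp1 and Tgtp2 are near-identical neighbours, effectors that help load the others onto vacuoles. Of the 31-base stretches of Tgtp1, 83.2% occur in Tgtp2, and 89.2% of those of Tgtp2 occur in Tgtp1, so the split of reads between them is uncertain. Tgtp2 read 2.13, 1.97 and 3.33 uninjected and 49.1, 173 and 104 injected, with a log2 change of 5.05 ± 0.43 (SE) and an adjusted p of 0.00303. Its second identifier, which is not in GENCODE M21, read 1.71, 3.55 and 4.21 uninjected and 49.8, 151 and 104 injected, close to the first in each injected library. Its change was 4.74 ± 0.44 (SE), adjusted p = 0.00378.

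Tgtp1 had the smallest change of the tested rows, at 2.05, 1.75 and 2.65 uninjected and 11.7, 43.0 and 45.7 injected. Mouse 1 rose least here. The log2 change was 3.47 ± 0.49 (SE), adjusted p = 0.0139. This was the only member row whose call was lost when a library was left out: the adjusted p became 0.0720, 0.0778 and 0.0591 without uninjected mouse 1, 2 or 3, and 0.0568 without injected mouse 3, within a range of 1.05e-06 to 0.0778 over all alternatives. With all Tgtp rows summed, the log2 change was 4.75, adjusted p = 0.00332.

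**Figure D2:**
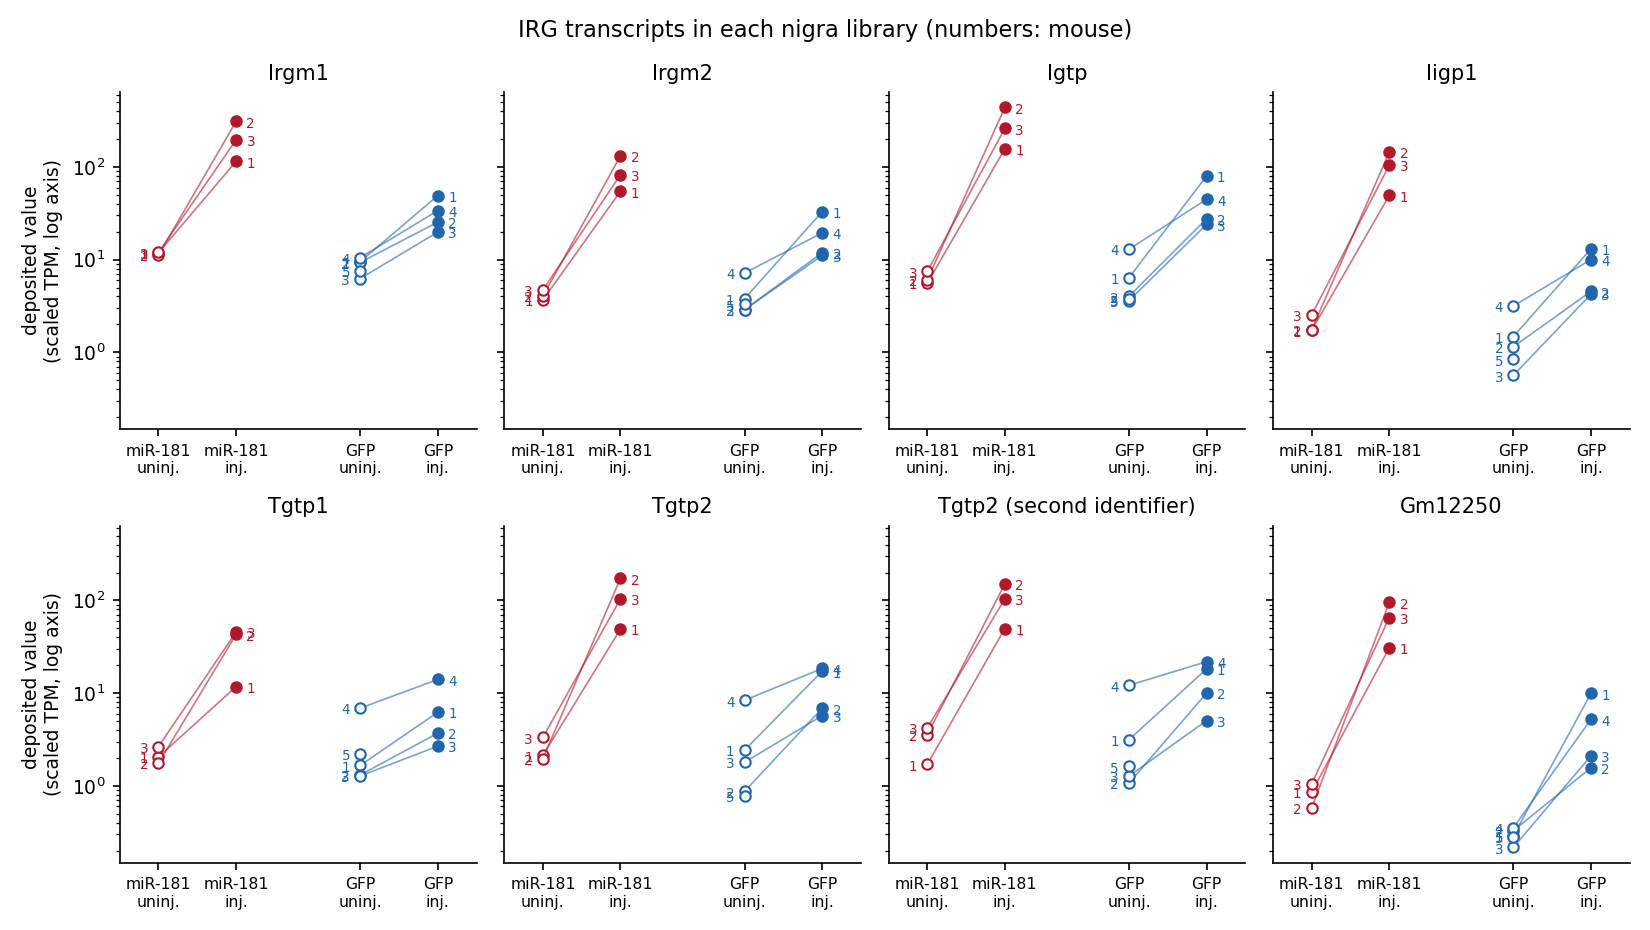
Scaled TPM (log axis) of the 8 tested member rows in each library, uninjected (open) and injected (filled), for miR-181 mice (red) and GFP mice (blue). Lines join the sides of a mouse and numbers are mouse numbers; GFP mouse 5 has an uninjected side only. Every line rises, and uninjected GFP mouse 4 is the highest uninjected GFP library in all 8 rows, by a narrow margin for Irgm1 and Gm12250.

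Markers of immune cells moved with the members. In bulk tissue, more cells of a type and more RNA per cell cannot be told apart. Microglia and macrophage markers (7 genes, none at 0 in any library) summed to between 387 and 407 uninjected and between 817 and 1360 injected, with 6 of 7 called higher. T and NK cell markers (9 genes) summed to between 13.1 and 17.5 uninjected and between 37.9 and 134 injected, with 6 of 9 called higher, 5 of them from uninjected means under 1. Gzmb, a defining gene of killer cells, was listed at 0 in uninjected mice 1 and 2, above 0 in uninjected mouse 3, and at 0.732, 3.07 and 2.53 on the injected sides. The B and plasma cell sum (6 genes) went from between 50.5 and 90.5 to between 786 and 4566, with 3 of the 4 tested called higher. The monocyte and perivascular macrophage sum went from between 6.51 and 9.35 to between 15.1 and 63.4, with 2 of 4 called higher, and the astrocyte sum from between 733 and 860 to between 1109 and 1479, with 2 of 4. Of the endothelial, oligodendrocyte and dopamine neuron markers, 0 were called by limma and 0 had an unadjusted p under 0.05. The dopamine neuron sum nevertheless went from 1154 to 509 in mouse 2, which had the highest IRG sum, while it read 1167 and 1177 in mouse 1 and 799 and 803 in mouse 3. The median log2 change of the 4 dopamine neuron markers was -0.38. The part of these cells, or of the lower dopamine neuron sum, in the IRG changes was not tested.

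The second comparison put the GFP-injected side against the uninjected sides of the GFP mice. It shows what the members did after a vector with the same promoter and another cargo. Igtp, Irgm1, Irgm2, Iigp1 and Gm12250 rose, by 1.78 to 2.75 on the log2 scale, and their injected libraries lay above all uninjected ones, as did those of 3.28% of all genes tested. Tgtp1 and both rows of Tgtp2 were higher on the injected side of each of the 4 mice with both sides, by 1.16 to 2.14 in the fit, but were not called.

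Of 8 rows tested, 5 were called higher, and all 8 were higher at an unadjusted p under 0.05, as were 6.82% of all genes. Of all 15435 genes tested, 210 were called higher (1.36%). Only 2 were called lower (0.013%), 4933434E20Rik and Gm49376, which are no members and are named because the count is small. The median log2 change was 2.08 for the 8 rows and 0.0046 for all genes. Without both libraries of mouse 1, which hold the pituitary transcripts, 2 rows were called, and without both of mouse 4 it was 3. Single libraries moved the count as well, to 2 without injected mouse 4 or uninjected mouse 5, to 3 without uninjected mouse 2 or 3, and to 7 without uninjected mouse 4. Here too Gm12250 passed the minimum mean only through its injected libraries.

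Igtp changed most of the regulators. It read 79.8, 27.6, 24.0 and 44.7 in injected mice 1 to 4, and 6.38, 4.01, 3.61, 13.0 and 3.72 in uninjected mice 1 to 5. The lowest injected value was still above the highest uninjected one, which came from mouse 4. The log2 change was 2.75 ± 0.42 (SE), adjusted p = 0.0103, higher in 4 of 4 mice.

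Irgm1 read 49.2, 25.4, 19.8 and 33.8 injected and 9.51, 9.33, 6.25, 10.5 and 7.50 uninjected, a change of 1.78 ± 0.24 (SE) on the log2 scale with an adjusted p of 0.00570. Irgm2 read 32.9, 11.9, 11.1 and 19.4 injected and 3.79, 2.88, 2.88, 7.18 and 3.29 uninjected, a change of 2.04 ± 0.34 (SE), adjusted p = 0.0167. Both were higher in 4 of 4 mice, and injected mouse 1 was the highest library for each regulator. The calls of Igtp and Irgm1 held under every alternative, with a highest adjusted p of 0.0419 and 0.0460. Irgm2 was lost without both libraries of mouse 1 (adjusted p = 0.0546), without injected mouse 4 (0.0628) and without uninjected mouse 5 (0.0538), within a range of 3.82e-05 to 0.0628.

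Among the effectors, Iigp1 read 13.1, 4.54, 4.23 and 10.03 injected and 1.48, 1.15, 0.564, 3.15 and 0.836 uninjected. Its groups did not overlap, and the change was 2.12 ± 0.41 (SE), adjusted p = 0.0337. This was the least stable of the 5 calls: the adjusted p rose to 0.144 without both libraries of mouse 1, to 0.117 without injected mouse 4, to 0.108 without injected mouse 1 and to between 0.0538 and 0.0979 without injected mouse 2 or uninjected mouse 1, 2, 3 or 5. It also rose above the threshold with no filter on low values (0.0797), with no intensity trend (0.0609) and without both libraries of mouse 4 (0.0752), within a range of 0.00141 to 0.144. The authors' deposited table gave Iigp1 q-values of 0.00141 and 0.0567 in its 2 tests.

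Gm12250 read 9.92, 1.57, 2.11 and 5.21 injected, and between 0.216 and 0.353 in all 5 uninjected libraries. The ratio of means was 16.1. The log2 change was 2.42 ± 0.42 (SE), adjusted p = 0.0208, and it was higher in 4 of 4 mice. With mouse as a block the adjusted p was 0.0896, so the call was lost. It was lost as well without both libraries of mouse 1 (0.0565), without both of mouse 4 (0.161), without injected mouse 4 (0.0825), and without uninjected mouse 2, 3 or 5 (0.0562, 0.0623 and 0.0611), within a range of 0.0113 to 0.161.

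The Tgtp2 rows were called under 1 alternative only, with uninjected mouse 4 left out and its injected side kept. Uninjected GFP mouse 4 read 8.38 for Tgtp2, where the other uninjected libraries read between 0.773 and 2.43. The injected libraries read 17.2, 6.84, 5.71 and 18.5, so mouse 4's uninjected side lay above the injected sides of mice 2 and 3. The log2 change of Tgtp2 was 2.14 ± 0.57 (SE), adjusted p = 0.154. Without that library it was 2.59, adjusted p = 0.0251. Without both libraries of mouse 4 it was 2.33, adjusted p = 0.0803, and Tgtp2 was not called. With mouse as a block it was 1.89, adjusted p = 0.0531, again not called.

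The second Tgtp2 identifier had the same shape, with 12.1 in uninjected mouse 4 and between 1.07 and 3.14 in the other uninjected libraries. Its injected values were 18.2, 10.01, 5.05 and 21.8. The change was 2.03 ± 0.62 (SE), adjusted p = 0.235, and 2.54 with an adjusted p of 0.0298 without that library. It was not called without both libraries of mouse 4 (adjusted p = 0.0869) or with mouse as a block (0.0738). Tgtp1 read 6.22, 3.70, 2.68 and 14 injected, and 1.66, 1.31, 1.28, 6.88 and 2.21 uninjected. Its change of 1.16 ± 0.51 (SE), adjusted p = 0.512, was called under no alternative, uninjected mouse 4 left out included, and the lowest adjusted p was 0.0558. The summed Tgtp rows gave 1.99 with an adjusted p of 0.212.

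Immune markers stood higher on the GFP-injected side too. The microglia and macrophage sum went from between 292 and 387 to between 524 and 669 (5 of 7 called higher), and the T and NK cell sum from between 9.23 and 20.8 to between 25.1 and 29.0 (0 of 3 tested called by limma, 2 at an unadjusted p under 0.05). Of the T and NK genes, Cd3e was listed at 0 in uninjected mice 2, 3 and 5, and Gzmb in uninjected mice 2 to 5, while both were above 0 in uninjected mouse 1. The B and plasma cell sum went from between 2.71 and 24.4 to between 62.2 and 1402 (2 of 3 called higher). The monocyte and perivascular macrophage sum went from between 3.75 and 6.12 to between 8.32 and 17.4 (0 of 3 tested called by limma). Among injected libraries, mouse 1 had the highest Irgm1, Irgm2, Igtp, Iigp1 and Gm12250. It had the lowest B and plasma cell sum and the highest microglia and macrophage sum (669). Its T and NK cell sum (26.3) and monocyte sum (14.1) were neither lowest nor highest. Uninjected mouse 4, with the high Tgtp values, had the lowest microglia and T and NK sums of all GFP libraries, at 292 and 9.23. Its microglia sum was close to that of uninjected mouse 3 (294). Its monocyte and perivascular macrophage sum was the highest of the uninjected GFP libraries, at 6.12. The part of these cells in the IRG changes was not tested.

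The third comparison tested whether the within-mouse changes of the 3 miR-181 mice and the 4 GFP mice differed. Each of the 8 tested member rows rose more in each miR-181 mouse than in any GFP mouse, as did 6.99% of all genes tested, and the difference was called for none of them. The differences ran from 2.20 to 3.19 on the log2 scale, with adjusted p from 0.0780 to 0.114 by limma. All 8 had an unadjusted p under 0.05 with a larger rise in miR-181 mice, as did 7.16% of all genes. The untested second Irgm1 row overlapped between the sets. Of all 15617 genes, 1 was called (0.0064%), Gm8430, which is no member and is named because the count is small.

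Among the regulators, the within-mouse change of Irgm1 was 3.22, 4.73 and 3.98 in miR-181 mice 1 to 3 and 2.31, 1.40, 1.59 and 1.64 in GFP mice 1 to 4. The difference was 2.24 ± 0.34 (SE), adjusted p = 0.0826. Igtp changed by 4.70, 6.08 and 5.04 against 3.55, 2.64, 2.57 and 1.75, a difference of 2.64 ± 0.44 (SE), adjusted p = 0.0909. For Irgm2 the difference was 2.20 ± 0.39 (SE), adjusted p = 0.0971. GFP mouse 1 came nearest to the miR-181 mice for all 3 regulators.

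Among the effectors, Iigp1 had the largest difference of the 8 rows. It changed by 4.48, 6.01 and 5.11 in miR-181 mice and by 2.78, 1.62, 2.15 and 1.53 in GFP mice, a difference of 3.19 ± 0.41 (SE), adjusted p = 0.0780. Tgtp2 differed by 3.16 ± 0.51 (SE), its second identifier by 2.84 ± 0.43, Gm12250 by 3.06 ± 0.63 and Tgtp1 by 2.30 ± 0.45, with adjusted p of 0.0894, 0.0826, 0.114 and 0.107. Without miR-181 mouse 1, 7 of the 8 rows were called, with adjusted p from 0.0103 to 0.0449, and 309 of all genes were called. With GFP mouse 1 left out, no member was called.

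**Figure D3:**
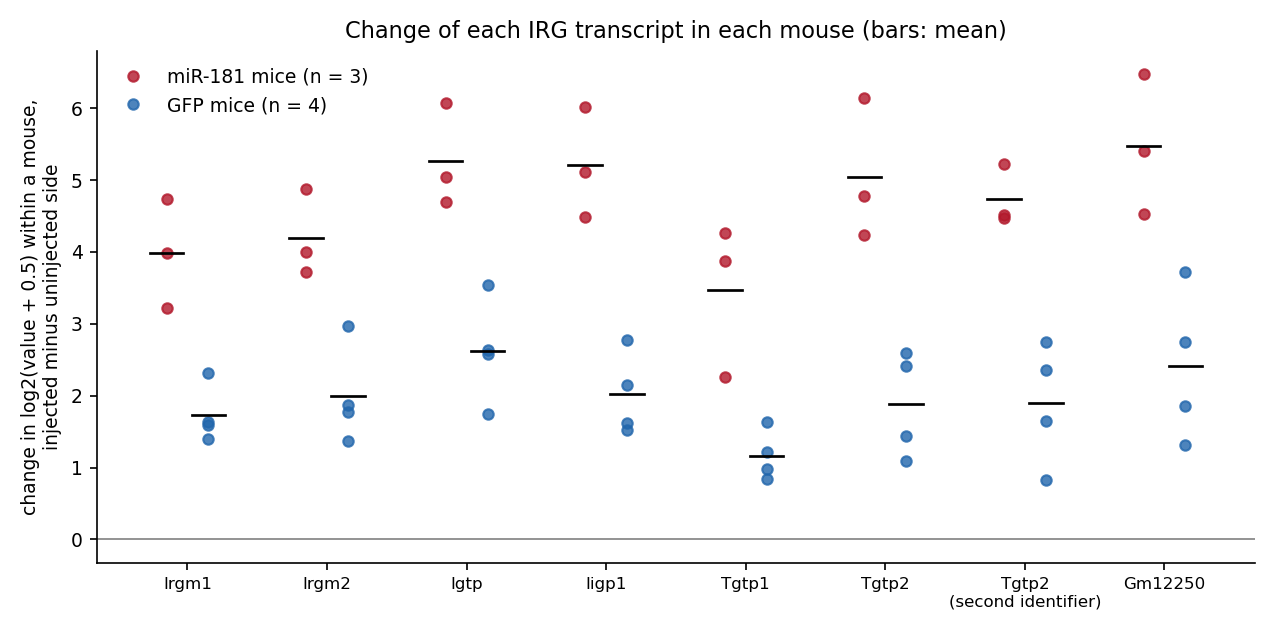
Within-mouse change of each tested member row, as log2(value + 0.5) of the injected minus the uninjected side, for 3 miR-181 mice (red) and 4 GFP mice (blue), with the mean of each set as a bar. The red points lie above the blue points for every row, and all points lie above 0.

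Added over all 9 rows, the IRG transcripts came to 29.6, 30.9 and 37.9 scaled TPM on the uninjected and 519, 1492 and 965 on the injected side of miR-181 mice 1 to 3. Each mouse thus rose 17.5, 48.3 and 25.5 times over its own control side. In the GFP set the sums were 228, 91.6, 76.5 and 168 injected and 28.7, 20.9, 19.0, 62.7 and 20.2 uninjected. The ratios in GFP mice 1 to 4 were 7.95, 4.37, 4.03 and 2.67. The smallest was that of mouse 4, whose uninjected side held the highest uninjected sum of all 15 libraries.

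The make-up of that sum moved along with its size. These shares are descriptions and carry no test. Irgm1 made up 36.0% ± 4.3 (SD, n = 3) of the sum in uninjected and 21.3% ± 0.98 in injected libraries of miR-181 mice, and 34.5% ± 9.8 (n = 5) and 24.6% ± 4.0 (n = 4) in those of GFP mice. Igtp went the other way, from 19.3% ± 0.49 to 29.0% ± 1.7 and from 19.9% ± 1.6 to 30.8% ± 3.4. The ratio of Igtp to Irgm1 was between 0.467 and 0.624 in uninjected and between 1.32 and 1.41 in injected miR-181 libraries. In the GFP set it was between 1.09 and 1.58 injected, and uninjected between 0.43 and 1.11, where the top value was that of mouse 4. The order of the 2 regulators was thus reversed on the injected side in every mouse but GFP mouse 4, which had Igtp above Irgm1 on both sides.

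The effectors together made up between 28.6% and 36.3% of the sum in uninjected and between 36.8% and 43.9% in injected miR-181 libraries. In GFP libraries the ranges overlapped, at between 22.5% and 49.3% uninjected and between 25.8% and 41.5% injected. Iigp1 went from 6.06% ± 0.55 to 10.01% ± 0.72 and Gm12250 from 2.51% ± 0.56 to 6.37% ± 0.43 in miR-181 mice (SD, n = 3 each). Tgtp1 went from 6.53% ± 0.74 to 3.29% ± 1.3 there. In the same libraries Tgtp2, with both identifiers, was at 16.9% ± 3.6 and 20.8% ± 1.5, which overlap.

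**Figure D4:**
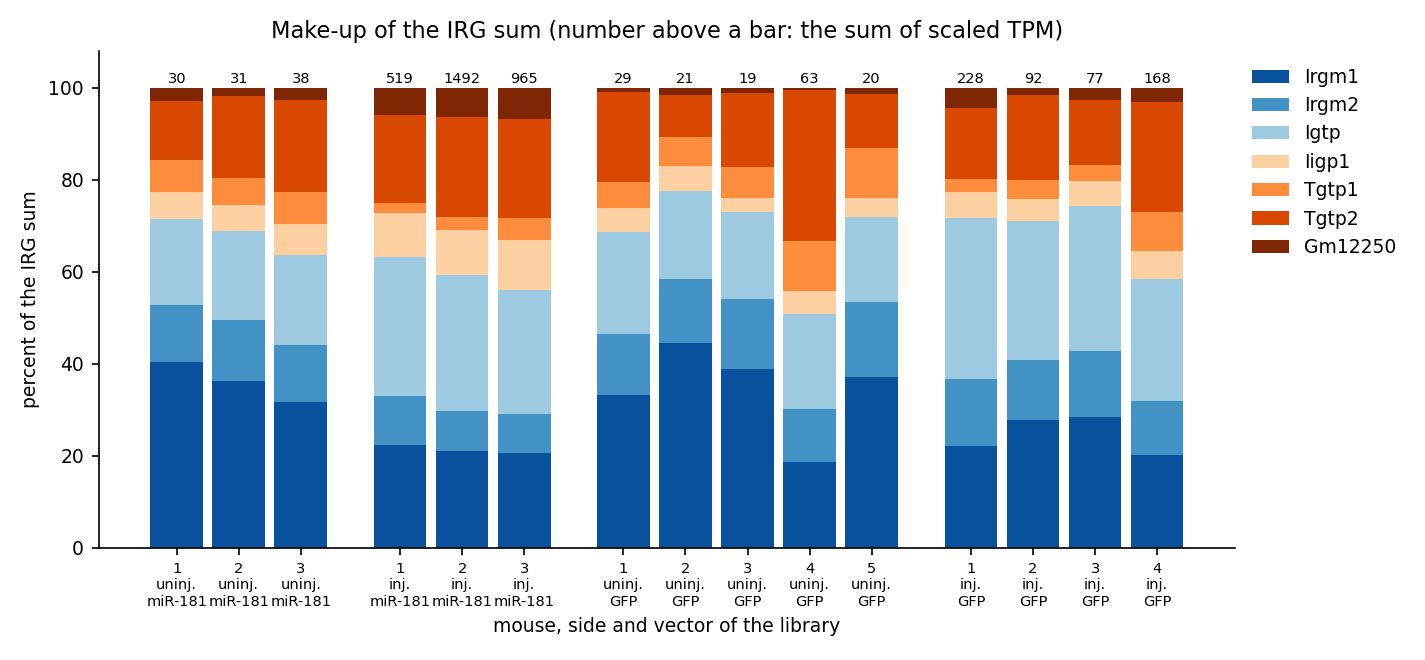
Share of each member in the sum of scaled TPM over the IRG rows, 1 bar per library, with the sum above the bar. Regulators are blue and effectors orange to brown. Within each mouse the share of Igtp is larger on the injected side, and that of Irgm1 is smaller except in GFP mouse 4, whose uninjected bar has the least Irgm1 (18.6%) and the most Tgtp2 (32.7%) of all 15.

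Further IRG genes of the mouse genome were counted from a list of 13 symbols, 11 of which had values. With 10 rows tested in miR-181 mice, 8 rose and none fell, with a median log2 change of 2.45. Ifi47 (also called Irgd) rose by 4.17 ± 0.48 (SE), adjusted p = 0.00759, from 1.73 ± 0.73 to 44.1 ± 25 (SD, n = 3 each). Gm4951 rose by 4.12 ± 0.38, adjusted p = 0.00379, and BC023105 by 4.01 ± 0.28, adjusted p = 0.00231, both from under 1 to 18.9 ± 9.0 and 9.42 ± 3.4. F830016B08Rik rose by 3.39 ± 0.35, adjusted p = 0.00518. Gm4951, BC023105 and F830016B08Rik, and 5 of the 8 called in all, had uninjected means under 1 and could be tested only because they were high on the injected side. Irgq, a distant relative, was at 38.7 ± 2.5 and 39.5 ± 2.3, adjusted p = 0.846.

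In GFP mice 5 rows of this list were tested and 1 rose, Gm4951, by 1.75, adjusted p = 0.0316, again with an uninjected mean under 1, while 4 had an unadjusted p under 0.05. Ifi47 read 10.4, 3.04, 3.17 and 8.85 injected and 2.26, 0.640, 1.27, 3.00 and 1.56 uninjected, so its groups did not overlap. Its change of 1.53 ± 0.42 (SE) had an adjusted p of 0.171. The difference between the sets was called for 0 of 9 rows, with 7 at an unadjusted p under 0.05 by limma. For Ifi47 it was 2.65 ± 0.42 (SE), adjusted p = 0.0894.

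Among the genes upstream of the members, Ifng, which encodes interferon-gamma, was near the floor of the data. It was listed at 0.420, 1.63 and 0.540 in injected miR-181 mice 1 to 3, at 0.0536, 0 and 0 on their uninjected sides and at 0 in all 9 GFP libraries. It fell under the minimum mean and was not tested. Mouse 2, which had the most Ifng, also had the highest IRG sum. Its injected side had the highest microglia, T and NK, B and plasma cell and astrocyte sums as well, but not the highest monocyte sum. A link between Ifng and the IRG sum was not tested.

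The receptor chain Ifngr1, which binds interferon-gamma, rose by 0.44 ± 0.077 (SE) in miR-181 mice, adjusted p = 0.0264, from 19.1 ± 1.0 to 26.0 ± 2.0 (SD, n = 3 each). Its partner Ifngr2 was at 27.6 ± 1.6 and 28.9 ± 3.0, adjusted p = 0.719. The type I receptor chains Ifnar1 and Ifnar2 changed by 0.24 and 0.49 and just missed the threshold, with adjusted p of 0.0501 and 0.0505. Of 7 ligand, receptor and kinase genes tested, 1 was called higher in miR-181 mice and 0 in GFP mice by limma, with 5 and 2 at an unadjusted p under 0.05. Over all genes tested, 3679 of 15621 in miR-181 mice and 1465 of 15435 in GFP mice had such a p, in either direction. In GFP mice Ifngr1 changed by 0.34, adjusted p = 0.173.

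More of the pathway's transcription factors than of its receptors were called. In miR-181 mice 10 of 11 rose, 1 of them from an uninjected mean under 1, with a median log2 change of 2.13, and in GFP mice 5 of 10 rose, Irf1 and Nlrc5 among them, with a median of 0.88. Irf1, which acts on ISRE sites, read 7.06, 7.6 and 7.86 uninjected and 35.7, 78.6 and 50.1 injected, so the groups were well apart. It rose by 2.72 ± 0.26 (SE), adjusted p = 0.00401, and in GFP mice by 1.00, adjusted p = 0.0373. Nlrc5, the activator of MHC class I genes, rose by 4.30 ± 0.38, adjusted p = 0.00320, and by 2.19, adjusted p = 0.0337. The difference between the sets was called for none of the 11 factors, with 10 at an unadjusted p under 0.05. For Irf1 it was 1.73 ± 0.23 (SE), adjusted p = 0.0780.

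The guanylate-binding proteins are larger GTPases that act with the IRG proteins on vacuoles. All 10 tested rose in miR-181 mice, with a median of 3.43, and 5 of 10 rose in GFP mice, with a median of 1.27. Gbp10 rose by 5.14 ± 0.44 (SE), adjusted p = 0.00303, from 0.567 ± 0.33 to 40.4 ± 22 (SD, n = 3 each), and by 2.36 in GFP mice, adjusted p = 0.0248. Gbp2 rose by 3.84 and 2.15, with adjusted p of 0.00303 and 0.0129, and Gbp8 by 4.22 and 1.83, with 0.00254 and 0.0274. In both sets Gbp8 and Gbp10 had uninjected means under 1 and reached the minimum mean only through their injected libraries. The difference between the sets was called for 0 of 10 by limma, with all 10 at an unadjusted p under 0.05.

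The other groups moved less. Of the feedback inhibitors 1 of 5 tested rose in each set, Usp18, the brake on type I interferon receptors, by 3.45 ± 0.57 (SE), adjusted p = 0.0215, in miR-181 mice and by 1.66, adjusted p = 0.0131, in GFP mice. Socs3 changed by 1.32 in miR-181 mice, adjusted p = 0.0888, and Ptpn2 by 0.14, adjusted p = 0.323. Proteins of the autophagy conjugation machinery help to bring IRG and guanylate-binding proteins to vacuoles. The list holds 15 genes of autophagy conjugation and of ubiquitin at vacuoles. In miR-181 mice 1 was called higher, Trim21, a ubiquitin ligase, by 2.30 ± 0.27, adjusted p = 0.00824. There 5 had an unadjusted p under 0.05, 3 of them higher, as did 3679 of all 15621 genes in either direction. In GFP mice 0 were called by limma and 0 had an unadjusted p under 0.05. The list's median change was 0.0099 in miR-181 mice, near that of all genes, and its next genes by p, Atg5 and Gabarapl2, changed by -0.27 and -0.12, with adjusted p of 0.101 and 0.129.

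**Figure D5:**
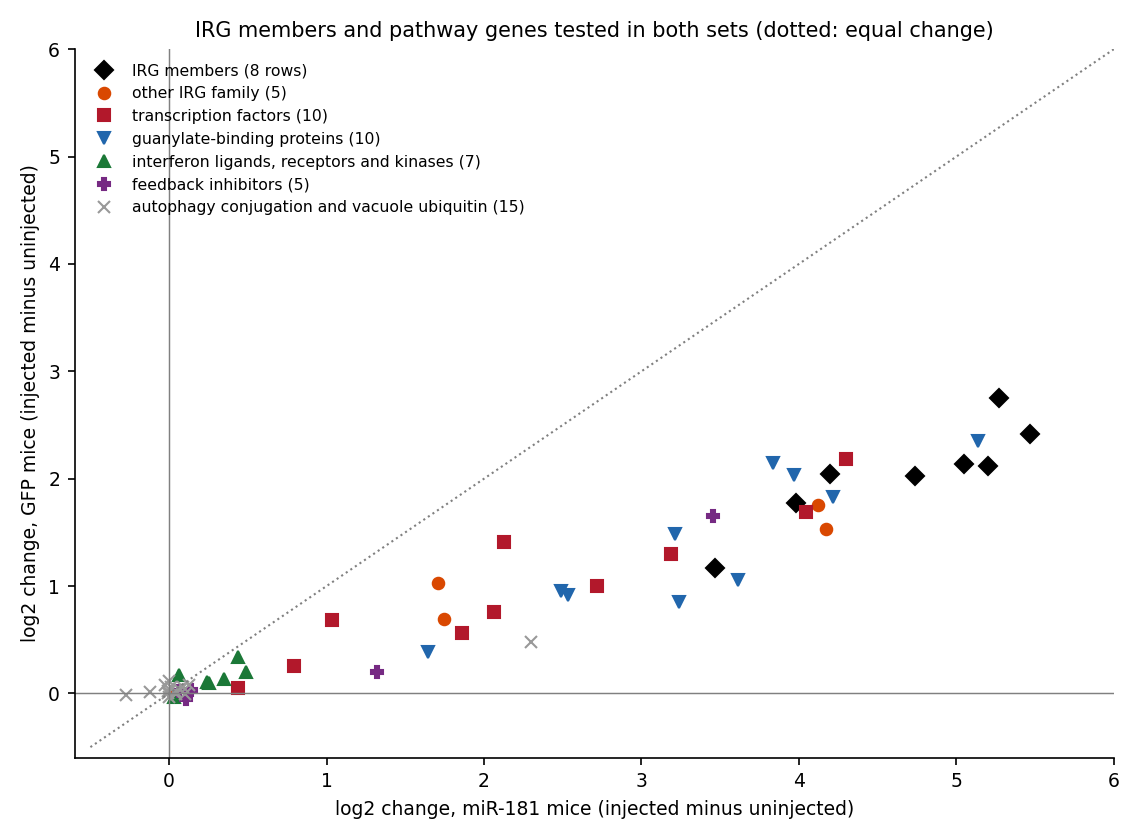
Log2 change, injected against uninjected, in miR-181 mice (horizontal axis) and GFP mice (vertical axis) for the 8 IRG member rows and the genes of 6 pathway lists tested in both sets; the dotted line marks equal change. The IRG members (black diamonds) lie between 3.47 and 5.47 on the horizontal and between 1.16 and 2.75 on the vertical axis. Gbp10, Gbp8, Gbp2 and Nlrc5 lie within the same ranges, and most receptor and autophagy genes lie near 0, with Trim21 at 2.30 on the horizontal axis.

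Across the 15 libraries, centred within each table, the member rows correlated with each other at Pearson's r between 0.902 and 0.998. Of 14976 other genes, those whose log2 values followed the mean of the members most closely were Gbp8 (r = 0.991), Gbp2 (0.989), Nlrc5 (0.988), Gbp3 (0.986) and Ifi47 (0.984). The libraries share the contrast of injected and uninjected sides and the mouse, so these values describe the data and carry no p. In the 9 GFP libraries alone the same genes ranked 4, 1, 2, 7 and 11. In the 6 miR-181 libraries alone they ranked 28, 10, 55, 49 and 46, with r still between 0.994 and 0.998.

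All 5 of these genes had their highest uninjected GFP value in mouse 4, by margins that differed. Nlrc5 read 4.33 there and between 0.749 and 2.69 in the other uninjected GFP libraries, Gbp2 read 6.07 against 1.76 to 3.45, and Gbp8 read 0.575 against 0 to 0.307. The margins were smaller for Ifi47 (3.00 against 0.640 to 2.26) and Gbp3 (9.56 against 4.1 to 8.51). Gbp10, not one of the 5, read 1.62 against 0.0638 to 0.149. Irf1, by contrast, read 7.50 in that library and was highest in uninjected mouse 1, at 10.8. Ifng was listed at 0 in it, as in every GFP library.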

How the data were processed

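RNA-seq was performed on 15 libraries of mouse substantia nigra, from stranded polyA preparations per the labels' protocols. The quantifier was kallisto 0.43.1, the statistics package sleuth 0.30.0 and the build GRCm38, per the submitters' processing notes. The authors deposited 1 table per set, normalized separately, each with 56305 rows. The deposited values per library are a signal, read from their sums as TPM divided by 1 scaling factor; the planned test assumed TPM and was kept. Depth per library is unknown, so no counting error is given. The authors' deposited coefficients are in natural log units and their q-values come from 2 tests; the p of the first is that of a Wald test, recomputed from the coefficients, to within 0.00483 of its size.

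Each identifier was kept as 1 row. Genes with a mean of at least 1 were fitted as log2(value + 0.5) by limma 3.58.1 (R 4.3.3). The variance trend followed intensity, and p was adjusted over all genes by Benjamini-Hochberg, with calls under 0.05. Comparisons were injected against uninjected sides in each set (3 and 3 libraries; 4 and 5), and the log2 change per mouse between the sets (3 and 4 mice). The fit was run on simulated data with independent normal noise for each gene. Those data held no pairing of sides, no correlation between genes and no outlying library. They cannot show how the fit handles these. In the first 2 comparisons p rests on the spread between the libraries of a side, with no mouse term. In the third it rests on the spread of within-mouse changes between mice. The pairing entered the first 2 only in the alternative with mouse as a block. Per the labels, libraries with the same mouse number are 2 sides of 1 animal and so are paired. Deviations from the group means correlated within a pair at 0.182, 0.140 and 0.257 (miR-181) and at 0.191, 0.0950, 0.0169 and 0.122 (GFP). The 31-base stretches were compared in GENCODE M21 transcripts, promoters come from RefSeq (GRCm38), and sequences and figures were handled with Python 3.11.15 and matplotlib 3.10.9.

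Named were all 7 members, Ifng, Ifngr1, Ifngr2, Irf1 and Ifi47, the 3 genes of each pathway list with the smallest p in miR-181 mice, and the 5 other genes most correlated with the members. A gene that the rule names is not reported here. Further genes were named after their values were seen, as markers or where a count was small. The members and lists were chosen with earlier results of these data known. Alternatives covered the pseudocount, the minimum mean, scaling, the trend, the mouse as a block, single libraries, GFP mouse 1, summed rows and the authors' tests; summing rows that share a symbol and leaving out GFP mouse 4 were added after the data were seen.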

Additional observations from a re-analysis of the deposited data

Results flagged for a closer look

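Uninjected GFP mouse 4 stood apart from the other 4 uninjected GFP libraries in 5 of the 20 groups of 4 or 5 libraries checked for the members and their sum. The check used scaled TPM and not log2 values, and on the log2 scale each gap takes up less of its group's range. Chance alone flags about 1 in 20 groups if values are normally distributed, which was not tested. The members are not independent of each other. Irgm2 read 7.18 scaled TPM in it, with 3.79 as the next highest value. Tgtp1 read 6.88 against 2.21, Tgtp2 8.38 against 2.43 and the second Tgtp2 identifier 12.1 against 3.14. The sum over the IRG rows read 62.7 against 28.7. In each of these the gap to the next library was more than 0.71 of the group's range, the limit used for 5 libraries. Uninjected GFP mouse 4 was also the highest of the 5 for the other tested rows, but within that limit. Igtp read 13.0 against 6.38, Iigp1 3.15 against 1.48, Irgm1 10.5 against 9.51 and Gm12250 0.353 against 0.327.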

How the results depend on the processing

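In miR-181 mice the called member rows were 6 of 6 tested with all Tgtp rows summed and 7 of 7 with rows summed by symbol. They were 9 of 9 with no filter on low values and 8 of 9 by each of the authors' tests. Under every other alternative 7 or 8 of 8 were called. No change reversed its direction in any of the 3 comparisons. The count of all called genes moved from 912 to 316 with no filter on low values, 460 with no intensity trend and 1934 by the authors' first test, and to between 116 and 1939 when single libraries were left out. In GFP mice the count over all genes moved from 212 to 138 at a mean of at least 5, 321 by the authors' first test and 73 without both libraries of mouse 4, and to between 110 and 257 without single libraries. With the mouse as a replicate block, it was 126, and in the members 4 of 8 rows were called in place of 5, with Gm12250 lost; the block changed no other call of a member. The 5 member rows called became 3 of 5 tested at a mean of at least 5. They became 2 without both libraries of mouse 1, 3 without both of mouse 4, and between 2 and 7 without single libraries. By the authors' first and second tests 4 and 3 of 7 rows were called, and Gm12250 had no test there. For the difference, the 1 call over all genes became 0 with no filter, 4 at a mean of at least 5 and 3 with no trend, and between 0 and 309 without single mice; member calls went from 0 to 7 without miR-181 mouse 1 and were 0 without any other mouse. Fewer libraries or genes enter some of these fits; the cause was otherwise not tested. Of the 5 genes most like the members, 0 were among the top 5 in miR-181 libraries alone and 3 in GFP libraries alone. Depth is unknown, so low values such as those of Gm12250 or Ifng on the uninjected side have no known counting error.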
